A study of Mus musculus with 21 samples.

Results

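The data comprise RNA-seq of microglia sorted 7 d after controlled cortical impact (CCI), an open-skull model of traumatic brain injury, from mice with mutant fibrinogen and from WT mice. They make up 6 of the 21 libraries of the study, 3 from Fgg γ390–396A mice and 3 from WT mice, chosen by the names of their columns in the count table. WT mice were C57BL/6, and Fgg γ390–396A mice carried a knock-in of the fibrinogen γ chain and were kept on the same background. All were males aged 17 to 24 weeks, and both groups had CCI. Tissue spanning the lesion from 2 brains of one genotype was pooled at random for each library, and 40000 live CD45low CD11b+ cells were sorted from it. The 3 libraries of sham microglia are given as the uninjured level, and these are labelled as wild type. Sham mice had anesthesia, a scalp incision and a craniotomy but no impact, and no day after surgery is given for them. Since the mutation is carried in every cell of the body and 2 brains share a library, the values describe pooled tissue and not single mice.

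When vessels are damaged, the plasma protein fibrinogen enters the brain and polymerizes into fibrin, a ligand of the myeloid integrin CD11b/CD18. In Fgg γ390–396A mice the residues that this integrin recognizes are replaced by alanines, while coagulation is spared. Microglia in healthy brain express a set of surveillance genes such as P2ry12 and Tmem119, and around damage they take up a program of lipid handling, lysosomal and phagocytic genes often called disease-associated microglia.

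Total counts of the 6 libraries lay between 20508605 and 32577781, of which ribosomal RNA genes took 48.6% to 52.7% in Fgg γ390–396A and 51.0% to 55.7% in WT libraries. Levels are in CPM, the usual count unit scaled to one library total, and a floor of 3 counts came to 0.0768 to 0.143 CPM, for counting error only. The factors that scale the libraries to each other were 1.11 to 1.20 in Fgg γ390–396A and 0.958 to 1.02 in WT libraries. The sorted cells carried the microglial markers, with 12 marker genes summing to 13230 to 15021 CPM in Fgg γ390–396A, 12570 to 14345 CPM in WT and 15325 to 18469 CPM in sham libraries. Markers of infiltrating monocytes summed to 33.9 to 46.2 and 22.4 to 66.7 CPM in the injured groups, and those of neutrophils to 386 to 459 and 263 to 877 CPM. The 16 lymphocyte genes summed to 10.97 to 12.5 and 11.8 to 20.4 CPM, with 2 above 1 CPM on average, both lower in the mutant libraries, and with Cd3d, Cd3g and Nkg7 at 0 counts in all 6 libraries. Gene length has been divided out of these values, so levels can be set side by side between genes. In sorted bulk RNA, fewer cells of one kind and less RNA per cell cannot be told apart.

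Fgg itself (chromosome 3, 83007724 to 83015049 on GRCm38), the gene of the fibrinogen γ chain, had 3, 3 and 14 counts in the Fgg γ390–396A libraries and 0 in each of the 3 WT libraries. Gene counts do not tell the mutant from the normal allele, but the libraries with any counts were those labelled as mutant. Neither chain of the fibrin receptor passed the test between genotypes. Itgam, which encodes CD11b, had 300.1, 339 and 309 CPM in Fgg γ390–396A and 312, 390 and 352 CPM in WT libraries, which overlap. Its log2 fold change was -0.15 (SE 0.16), with a 95% interval of -0.48 to 0.18. Itgb2, which encodes CD18, had 85.04, 74.1 and 79.9 CPM against 100.3, 91.0 and 91.3 CPM. The Itgb2 libraries of Fgg γ390–396A mice were all lower, but the log2 fold change of -0.24 (SE 0.14) did not pass the test. Of 21 genes of this receptor and its proximal signaling, 0 passed the test, 11 were lower and 10 higher, with a median log2 fold change of -0.05. Over all 12311 genes with a mean of at least 1 CPM the median was 0.01. Fgr, a Src-family kinase, was the member with the smallest p, at 9.12, 3.77 and 7.21 CPM in Fgg γ390–396A against 14.8, 15.3 and 13.1 CPM in WT libraries (unadjusted p = 0.0066, adjusted p = 1 in edgeR). Fgr was at 0.574 to 1.46 CPM in sham libraries, so the WT and mutant values both lie above the uninjured level.

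A gene was called between genotypes where edgeR's quasi-likelihood test gave an adjusted p under 0.1 and the level changed by more than 1 on the log2 scale. Of 23815 genes tested, 9 (0.0378%) passed, 6 (0.0252%) higher and 3 (0.0126%) lower in Fgg γ390–396A microglia. Every one lies on chromosome 3 or is a near-identical copy of a chromosome 3 gene. The 6 higher were all copies, namely Rps3a3, Gm3608, Rps3a2, Rpl34-ps1, Hist1h2al and Gm5900. The 3 lower were the chromosome 3 genes Rps3a1, Fabp5 and Fcrls. None of the 20280 other genes was called, 613 of them had an unadjusted p under 0.05 (3.34% of all genes did), and DESeq2's Wald test called 43 of them (0.461% of all genes it gave a p).

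The copies are annotated as pseudogenes that differ from their chromosome 3 counterpart by few bases, so that a read can be assigned to either only by those bases. Windows of the coding sequence are shown because the assignment of reads rests on the bases in capitals, which differ between the copies. Positions count from the A of the start codon of the chromosome 3 gene, and the sequences come from GENCODE M21 on GRCm38, each read on the strand of its gene. For Rps3a1, which encodes a protein of the small ribosomal subunit, the window covers positions 627 to 686 on the minus strand (chr3:86138098-86138529) and crosses an exon junction. Rps3a2 differs there by A645T and T668C, and Rps3a3 by A660G.
Rps3a1: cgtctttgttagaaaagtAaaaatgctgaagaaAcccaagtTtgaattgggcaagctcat
Rps3a2: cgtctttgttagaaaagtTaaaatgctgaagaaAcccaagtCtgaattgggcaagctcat
Rps3a3: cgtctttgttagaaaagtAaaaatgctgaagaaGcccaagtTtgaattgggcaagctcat

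For Rpl34, which encodes a protein of the large ribosomal subunit, the window covers positions 102 to 161 on the minus strand (chr3:130729055-130729114), and Rpl34-ps1 differs by T132C. For Capza1, a subunit of the protein that caps actin filaments, it covers positions 513 to 572 on the minus strand (chr3:104834111-104834170), and Gm3608 differs by T543C. For Lamtor3, a scaffold of the lysosomal MAPK and mTOR pathway, it covers positions 81 to 140 on the plus strand (chr3:137925148-137926845) across an exon junction, and Gm5900 differs by C111T.
Rpl34: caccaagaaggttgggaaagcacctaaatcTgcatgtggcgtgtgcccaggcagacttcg
Rpl34-ps1: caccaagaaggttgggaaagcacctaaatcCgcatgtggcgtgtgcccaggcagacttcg
Capza1: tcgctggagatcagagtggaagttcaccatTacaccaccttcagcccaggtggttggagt
Gm3608: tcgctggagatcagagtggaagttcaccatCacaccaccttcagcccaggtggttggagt
Lamtor3: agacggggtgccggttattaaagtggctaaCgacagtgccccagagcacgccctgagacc
Gm5900: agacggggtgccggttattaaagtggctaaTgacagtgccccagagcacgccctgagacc

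Rps3a1 had 143, 101 and 97.1 CPM in Fgg γ390–396A and 493, 378 and 420 CPM in WT libraries, while Rps3a3 (chromosome 13) had 138, 196 and 212 against 1.15, 2.52 and 4.83 CPM. Rps3a2 (chromosome 14) had 141, 197 and 193 against 13.2, 21.9 and 19.2 CPM. The gene and its copies thus moved in opposite directions, with log2 fold changes of -1.92 (SE 0.20, adjusted p = 4.0e-05), 5.99 (SE 0.44, adjusted p = 6.0e-07) and 3.28 (SE 0.30, adjusted p = 7.9e-06) in edgeR. Summed over the 4 genes of the family, the level was 474 ± 43.6 CPM (SD, n = 3) in Fgg γ390–396A and 454 ± 52.3 CPM in WT libraries, and the groups overlapped. The sums therefore did not separate the genotypes although each of these 3 genes did.

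Capza1 and Gm3608 (chromosome 1) showed the same shape. Capza1 had 43.2, 42.1 and 46.5 against 81.2, 77.1 and 76.5 CPM, and Gm3608 had 36.7, 46.1 and 44.6 against 3.54, 5.45 and 4.75 CPM. Their family summed to 87.0 ± 6.13 CPM (SD, n = 3) and 83.0 ± 1.73 CPM, which overlapped. Gm5900 (chromosome 7), at 1.84, 2.91 and 3.33 against 0.191, 0.203 and 0.348 CPM, added little to Lamtor3, at 13.8, 14.7 and 14.0 against 18.9, 10.97 and 14.2 CPM, and this sum overlapped too. The call of Gm5900 was lost in 5 of the 6 fits that left out a library, with an adjusted p of up to 0.42 in edgeR. Hist1h2al (chromosome 13), near-identical to the histone genes Hist2h2aa1, Hist2h2aa2 and Hist2h2ac, had 17.8, 30.6 and 38.4 against 0, 0 and 0.309 CPM (adjusted p = 0.0032 in edgeR). With the 3 histone genes it summed to 95.2 ± 16.9 CPM (SD, n = 3) in Fgg γ390–396A and 112 ± 6.19 CPM in WT libraries, again with overlap.

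The Rpl34 family differed from the others. Rpl34 had 195, 176 and 197 against 279, 217 and 255 CPM, and Rpl34-ps1 (chromosome 6) had 148, 218 and 228 against 15.8, 15.5 and 17.6 CPM. The summed level of its 6 genes was 388 ± 41.4 CPM (SD, n = 3) in Fgg γ390–396A and 267 ± 30.7 CPM in WT libraries, and the groups did not overlap. With reads this alike, the division between a gene and its copies is uncertain in each family, and whether the alleles of the mutant mice differ from the reference at these bases was not tested.

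**Figure D1:**
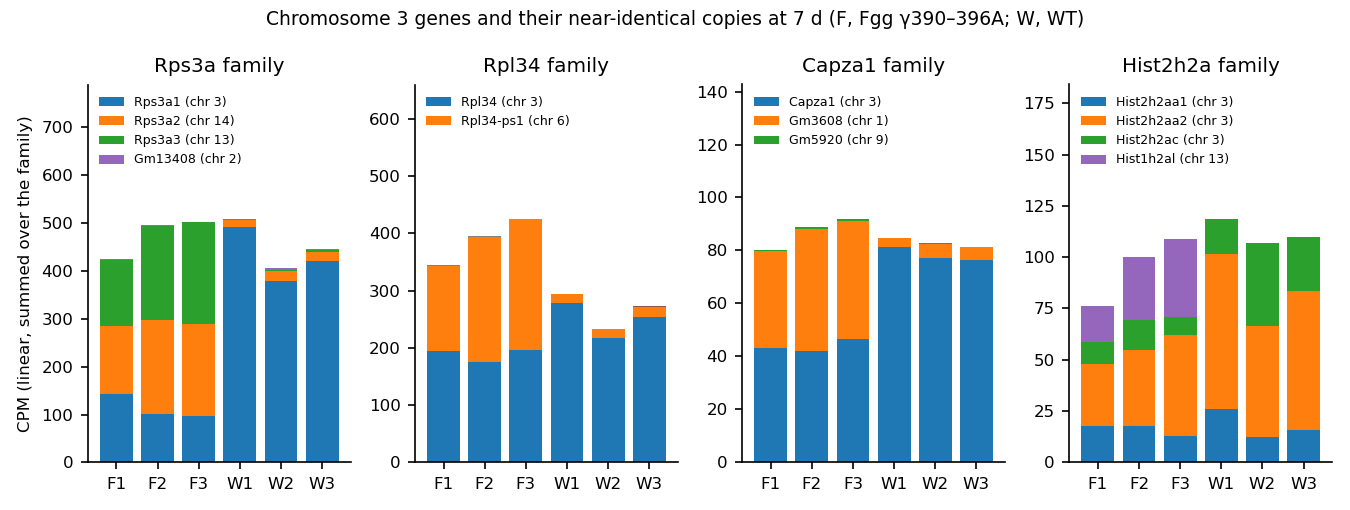
Stacked bars give the level (CPM, linear axis from 0) of each gene of the Rps3a, Rpl34, Capza1 and Hist2h2a families in the 3 Fgg γ390–396A (F) and 3 WT (W) libraries at 7 d, coloured by gene with its chromosome. The copies take a larger part of each mutant bar than of any WT bar of the same family, while the total height overlaps between genotypes in all but the Rpl34 family, where it was 388 and 267 CPM on average.

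Fabp5 (chromosome 3, 10012548 to 10016607), which carries fatty acids in the cytoplasm, was called, and its near-identical copies held few counts. It had 2.77, 5.10 and 3.62 CPM in Fgg γ390–396A, 15.6, 13.7 and 12.3 CPM in WT and 1.05, 0.342 and 0.905 CPM in sham libraries. All mutant libraries thus lay between the sham and the WT libraries. The log2 fold change between genotypes was -1.86 (SE 0.29, adjusted p = 0.015 in edgeR), and adding its pseudogenes left 3.99 ± 1.38 against 14.5 ± 1.63 CPM (SD, n = 3). The adjusted p was above 0.1 without Fgg γ390–396A library 1 or 3 or WT library 1, and was at most 0.19 over the alternatives. Fcrls (chromosome 3, 87250758 to 87263738), an Fc receptor-like molecule by which microglia are told from other macrophages, had 271, 185 and 229 against 730, 683 and 697 CPM, and 626, 664 and 816 CPM in sham libraries. For Fcrls it was the WT libraries that stayed at the sham level, with a log2 fold change between genotypes of -1.62 (SE 0.28, adjusted p = 0.040 in edgeR). This call was lost without any 1 of 5 of the 6 libraries, all but Fgg γ390–396A library 1, with an adjusted p of up to 0.48.

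The genes around Fgg on chromosome 3 held a larger share of small p than genes elsewhere, a description that was not tested. Of the 37 genes with a mean of at least 1 CPM within 5 Mb of Fgg, 8 (21.6%) had an unadjusted p under 0.05, against 3.34% of all genes of this level and 2.96% of the 10994 genes outside chromosome 3 and the copies. The share was 1.25% of 80 genes between 5 and 10 Mb, 4.05% between 10 and 20 Mb, and 5.82% and 5.88% farther away. The 8 were Rps3a1, Fcrls, Fcrl1, Cd5l and Tlr2, which were lower, and Arfip1, Lrba and Arhgef11, which were higher in Fgg γ390–396A libraries. Tlr2, Lrba and Arhgef11 are named here after their values were seen. In libraries that the 7 d comparison does not use, the share within 5 Mb was 20.6% in 1 d microglia, against 3.23% to 10.7% farther along chromosome 3 and 6.4% elsewhere. In 1 d myeloid cells it was 15.6%, below the 16% to 21.6% farther along the chromosome and near the 13.1% elsewhere. Effects of the mutation on these genes and differences in the sequence linked to it cannot be told apart in this design.

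Several of these genes are known from microglia or macrophages. Fcrl1, an Fc receptor-like gene, had 3.56, 0.359 and 0.394 CPM against 13.6, 9.51 and 15.9 CPM. Cd5l, a scavenger protein secreted by macrophages, had 0.845, 0.108 and 0.179 against 4.49, 13.8 and 3.59 CPM, and 0 to 0.287 CPM in sham libraries. Neither passed the test across all genes (adjusted p = 0.26 and 1 in edgeR), and DESeq2 called both. Farther along the chromosome, Gbp2b, an interferon-induced GTPase, had 2.36, 3.27 and 2.22 CPM in Fgg γ390–396A libraries and 0.0478, 0 and 0.0773 CPM in WT libraries, under their floor of 3 counts. Gbp2b was thus seen in every mutant library and hardly in the others, with an adjusted p of 0.24 in edgeR and 0.00064 in DESeq2. Bank1, an adaptor of immune receptor signaling, had 23.02, 33.9 and 31.7 against 6.45, 8.17 and 9.74 CPM, and 29.6, 31.1 and 32.2 CPM in sham libraries (log2 fold change 1.86, SE 0.38, adjusted p = 0.22 in edgeR). The mutant libraries held Bank1 at the sham level, and the WT libraries lay below it. Ap1ar, which links a clathrin adaptor to kinesin, had 14.5, 19.4 and 18.9 against 9.65, 9.35 and 7.69 CPM, with sham libraries at 9.15 to 10.6 CPM. Frrs1, a ferric-chelate reductase, had 28.1, 20.5 and 22.6 against 44.9, 47.7 and 40.3 CPM. The genes of this paragraph were named partly because their libraries did not overlap between the genotypes, so the lack of overlap is no result here. Of all genes with a mean of at least 1 CPM, 8.49% did not overlap in the higher and 7.23% in the lower direction.

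**Figure D2:**
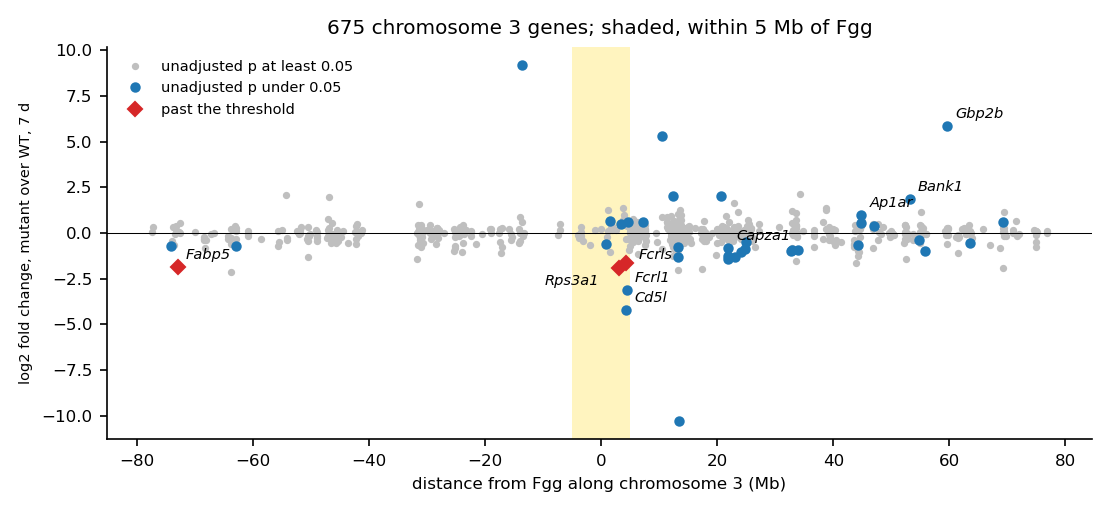
Each point is 1 of 675 chromosome 3 genes with a mean of at least 1 CPM, by its distance from Fgg (Mb) and its log2 fold change between Fgg γ390–396A and WT microglia at 7 d, with blue points at an unadjusted p under 0.05, diamonds past the threshold and the 5 Mb on either side of Fgg shaded. Of the 37 genes in the shaded band 8 are blue or diamonds.

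Genes that injury raised were lower in Fgg γ390–396A microglia, although 0 of them passed the test singly outside chromosome 3 and the copies. Injury genes were those that differed from sham in the mean of both genotypes at 7 d by more than 1 on the log2 scale with an adjusted p under 0.05, which 334 genes did upwards (1.4%) and 18 downwards (0.0756%), so that neither genotype was favored in choosing them. Outside chromosome 3 and the copies there were 241 raised genes, and 227 of them (94.2%) were lower in Fgg γ390–396A than in WT microglia, against 47.0% of the 10994 genes outside chromosome 3 and the copies with a mean of at least 1 CPM. Their median log2 fold change was -0.51, against 0.02 for all. For 108 of the 241 the mutant libraries all lay below the WT libraries and for 0 all above, where 7.01% of those 10994 genes lie all below. The 241 had no limit on their mean and include genes under 1 CPM, which the 10994 leave out. Of the 241, 62 had an unadjusted p under 0.05 and were lower, against 1.89% of the 10994 genes, and 0 had such a p and were higher. Of 16 genes that injury lowered, 13 were higher in Fgg γ390–396A microglia, with a median log2 fold change of 0.43.

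Set beside the uninjured level, the raised genes had a median log2 fold change over sham of 2.29 in WT and 1.64 in Fgg γ390–396A microglia. By the same rule WT microglia differed from sham in 459 higher (1.93%) and 22 lower genes (0.0924%), and Fgg γ390–396A microglia in 150 higher (0.63%) and 8 lower genes (0.0336%). Both comparisons share the 3 sham libraries. The sums of 3 marker lists moved with the genotypes as well. The 30 genes raised by tissue dissociation, of which 29 had a mean of at least 1 CPM, summed to 1334 to 1651 CPM in Fgg γ390–396A, 1657 to 1803 CPM in WT and 1070 to 2680 CPM in sham libraries, with 17 of the 29 lower and 12 higher. The 7 red blood cell genes summed to 5.92 to 9.88, 0.580 to 2.07 and 0.151 to 34.5 CPM, with Hbb-bs at 3.66, 2.84 and 4.02 CPM in the mutant and 0 CPM in the WT libraries, and with Slc4a1 at 0 in all 6 libraries. The 8 astrocyte genes summed to 38.2 to 41.7, 34.6 to 37.0 and 45.2 to 54.5 CPM, of which 3 had a mean of at least 1 CPM, 2 higher and 1 lower. The part of these lists in the difference between the genotypes was not tested. Markers of infiltrating monocytes and neutrophils overlapped between the genotypes. With the mean of the monocyte markers as a covariate the median of the raised genes was -0.43, where the raised genes were chosen anew in that fit and are not the same set.

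**Figure D3:**
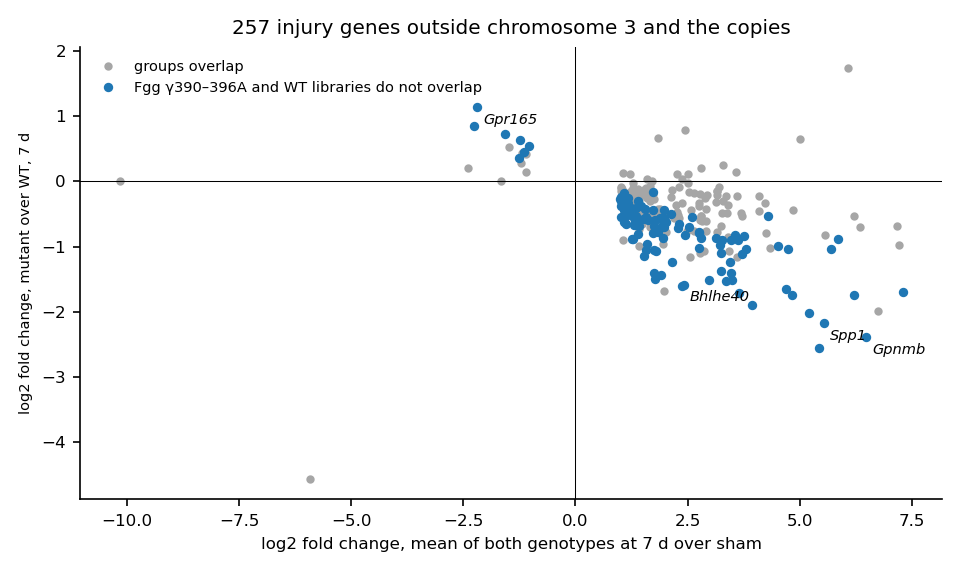
Each point is 1 of 257 injury genes outside chromosome 3 and the copies, by its log2 fold change over sham in the mean of both genotypes at 7 d (horizontal) and its log2 fold change between Fgg γ390–396A and WT microglia (vertical), blue where the libraries of the genotypes do not overlap. Of the 241 raised genes, on the right, 227 lie below 0, and of the 16 lowered genes, on the left, 13 lie above 0.

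Among genes outside chromosome 3 and the copies whose groups did not overlap, those with the smallest p in the lower direction included Sulf2, Bhlhe40, Spp1 and Gpnmb, all raised by injury in the mean of both genotypes. Spp1, or osteopontin, a secreted phosphoprotein of activated macrophages, had 26.6, 62.3 and 58.9 CPM in Fgg γ390–396A, 196, 337 and 135 CPM in WT and 0.861, 1.25 and 4.55 CPM in sham libraries. Its log2 fold change between genotypes was -2.18 (SE 0.51, adjusted p = 0.48 in edgeR), and DESeq2 called it at an adjusted p of 0.0032, with a range of 0.0032 to 1 over the alternatives. Gpnmb, a transmembrane glycoprotein of lipid-laden phagocytes, had 1.54, 6.96 and 3.91 against 17.2, 36.6 and 10.98 CPM, and 0.0380 to 0.151 CPM in sham libraries. Both genes had left the sham level in each genotype. Sulf2, Bhlhe40, Spp1 and Gpnmb, like the higher genes below, were picked among genes without overlap between genotypes. Their lack of overlap is therefore no result here. Gpnmb had a log2 fold change between genotypes of -2.39 (SE 0.56, adjusted p = 0.48 in edgeR and 0.015 in DESeq2).

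Bhlhe40, a transcription factor, had 0.922, 1.00 and 1.61 against 4.01, 3.82 and 2.74 CPM, and 0.255 to 0.578 CPM in sham libraries. Sulf2, which removes sulfate groups from heparan sulfate outside the cell, had 23.3, 14.2 and 17.2 against 32.2, 45.2 and 36.3 CPM. Bhlhe40 and Sulf2 had adjusted p of 0.31 and 0.24 in edgeR and of 0.0051 and 0.0032 in DESeq2, with log2 fold changes of -1.58 (SE 0.35) and -1.05 (SE 0.22). In the higher direction, Gpr165, an orphan G protein-coupled receptor, had 8.35, 9.37 and 10.4 against 3.78, 4.15 and 4.79 CPM, and 25.1 to 35.2 CPM in sham libraries. For Gpr165 too the mutant libraries lay between WT and sham, with a log2 fold change of 1.14 (SE 0.34, adjusted p = 1 in edgeR). The others were Dph3, an enzyme cofactor of diphthamide synthesis, at a log2 fold change of 1.20, Nrm, a protein of the nuclear envelope, at 0.66, Gm17349 at 2.36, and Gm38053, which had 54, 104 and 55 counts in Fgg γ390–396A and 0 in every WT library. No gene of these passed the test in edgeR.

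The promoters of Spp1 and Gpnmb are shown because these had the largest fold changes among Sulf2, Bhlhe40, Spp1 and Gpnmb. Each is the 250 bases before a transcription start in RefSeq on GRCm38.p6. The 3 motifs searched on both strands, none of which contains another, were the core bound by PU.1 (GAGGAAGT), the myeloid master regulator, the AP-1 site (TGACTCA) and the E-box of basic helix-loop-helix factors (CACGTG). They occur in 2.44%, 4.46% and 6.02% of 32851 promoters of this length. Capitals mark a match, of which the Spp1 window holds a single PU.1 core and the Gpnmb window none. A second RefSeq start of Spp1, whose window (chr5:104435942-104436191) is not printed, has no match to any of the 3 motifs.
Spp1 (chr5:104434861-104435110, plus strand): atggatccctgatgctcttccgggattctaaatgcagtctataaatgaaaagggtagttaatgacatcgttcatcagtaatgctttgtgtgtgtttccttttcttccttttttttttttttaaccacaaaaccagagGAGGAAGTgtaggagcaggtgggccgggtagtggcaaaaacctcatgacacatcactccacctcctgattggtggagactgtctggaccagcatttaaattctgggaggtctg
Gpnmb (chr6:49036268-49036517, plus strand): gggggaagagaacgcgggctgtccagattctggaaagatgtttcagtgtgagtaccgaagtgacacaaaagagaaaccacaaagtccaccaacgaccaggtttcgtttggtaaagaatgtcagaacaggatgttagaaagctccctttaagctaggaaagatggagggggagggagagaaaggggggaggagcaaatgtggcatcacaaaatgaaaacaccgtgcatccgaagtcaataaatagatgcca

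**Figure D4:**
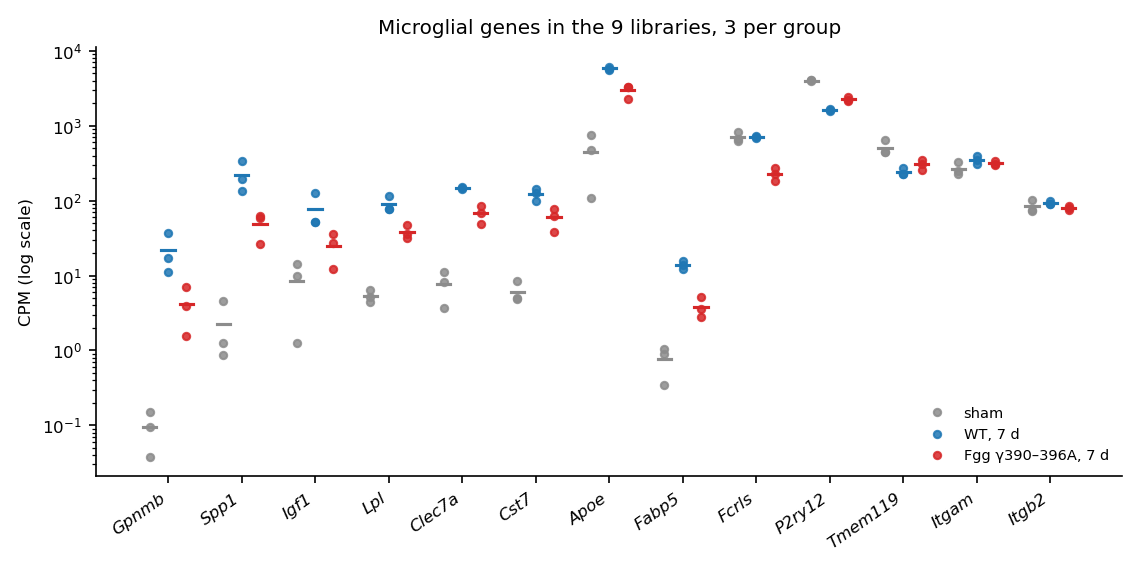
Points give the level (CPM, log axis) of 13 microglial genes in each of 3 sham, 3 WT and 3 Fgg γ390–396A libraries, the last 2 groups at 7 d, with bars at the means. From Gpnmb to Fabp5 the mutant means lie between those of sham and WT, as for Spp1 with means of 49.2 and 223 CPM in mutant and WT libraries, whereas Itgam overlaps between the genotypes.

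Genes of disease-associated microglia were lower in Fgg γ390–396A microglia as a group. All 32 listed genes had a negative log2 fold change, with a median of -0.67, while 48.0% of all genes with a mean of at least 1 CPM were negative. Like the other lists, this one was drawn up with earlier results of these data known. Of its members, 18 are also among the genes raised by injury above, so the 2 descriptions partly rest on the same values. For 28 of the 32 the mutant libraries lay below all WT libraries, as for 7.23% of all genes, 18 had an unadjusted p under 0.05 (lower in 2.1% and higher in 1.23% of all genes), and 1, Fabp5, was called. Without the 3 members on chromosome 3 or among the copies, 29 of 29 were lower with a median of -0.56. The list summed to 16692 to 19228 CPM in Fgg γ390–396A, 25837 to 27871 CPM in WT and 8251 to 11977 CPM in sham libraries. The groups are ordered without overlap, with the mutant libraries closer to sham than the WT libraries were. Over sham, 22 members were called higher in WT and 12 in Fgg γ390–396A microglia, against the same 3 sham libraries. Of all 12311 genes with a mean of at least 1 CPM, 426 were called higher in WT and 145 in Fgg γ390–396A microglia.

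Among its surface receptors, Clec7a, which binds fungal glucans, had 85.7, 48.8 and 68.5 against 148, 143 and 152 CPM, and 3.67 to 11.01 CPM in sham libraries. Its log2 fold change was -1.12 (SE 0.31, adjusted p = 1 in edgeR and 0.069 in DESeq2). Itgax, which encodes CD11c, the α chain of another fibrin-binding integrin, had 13.3, 5.31 and 10.4 against 18.3, 13.2 and 17.6 CPM, which overlap. Axl, a receptor for bridged phosphatidylserine, had 45.4, 22.1 and 30.9 against 49.6, 61.0 and 63.8 CPM. The 3 receptors were thus lower on average in Fgg γ390–396A and above every sham library in both genotypes. Among secreted factors, Igf1, a growth factor, had 12.1, 36.2 and 27.1 against 51.7, 126 and 51.2 CPM. Csf1 (chromosome 3), the ligand of the receptor on which microglia depend, had 36.7, 26.0 and 35.4 against 62.4, 64.7 and 53.6 CPM, and Ccl6 had 46.5, 35.1 and 42.8 against 88.8, 59.9 and 64.6 CPM. Cst7, an inhibitor of lysosomal cathepsins, had 78.3, 37.9 and 62.8 against 145, 97.6 and 127 CPM (log2 fold change -1.04, SE 0.38). None of these passed the test across all genes (adjusted p = 1 in edgeR), though the libraries of Igf1, Csf1, Ccl6 and Cst7 did not overlap.

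Genes of lipid uptake, storage and efflux followed the same direction. This list shares Fabp5 with that of disease-associated microglia, so the lists are not independent. Of 22 members, 20 were lower and 2 higher, with a median log2 fold change of -0.45, and 6 of the lower had an unadjusted p under 0.05. Of all genes with a mean of at least 1 CPM, 48.0% were lower, and 2.1% were lower with such a p. Apoe, the main lipoprotein component of glia, had 2279, 3340 and 3278 CPM against 5544, 6177 and 5736 CPM, and 108, 476 and 753 CPM in sham libraries. With a log2 fold change of -0.97 its SE was 0.55, so the 95% interval reached from -2.12 to 0.17. This SE rests on the spread estimated over all 21 libraries, not on that of the compared libraries alone. Lpl, which frees fatty acids from lipoproteins, had 35.6, 31.4 and 47.5 against 77.7, 115 and 77.1 CPM (log2 fold change -1.23, SE 0.51, adjusted p = 1 in edgeR). Msr1, a scavenger receptor, had 6.56, 9.22 and 8.21 against 17.4, 17.2 and 13.6 CPM. The 20 enzymes and regulators of cholesterol and fatty acid synthesis had a median of -0.10, with 13 lower and 7 higher. Among lysosomal genes 24 of 30 were lower with a median of -0.22, and 5 were lower with an unadjusted p under 0.05, beside the same shares of all genes. Cd68, a lysosomal glycoprotein used to mark phagocytes, had 834, 540.3 and 762 against 1006, 1112 and 885 CPM, and Hexa, a hexosaminidase subunit, had 202, 180.4 and 196 against 269, 217 and 238 CPM.

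Chemokine and oxidative genes had medians below 0, and the median of the inflammatory response was near 0. Of 35 genes of the inflammatory response 24 were lower and 11 higher, with a median log2 fold change of -0.12, and 4, Spp1, Csf1, Tlr2 and Il1rn, had an unadjusted p under 0.05. Of all genes with a mean of at least 1 CPM, 48.0% were lower, and 2.1% were lower with such a p. Of 22 chemokines and their receptors 17 were lower with a median of -0.50. Ccl3, a chemokine of activated microglia, had 143, 101 and 117 against 252, 189 and 184 CPM, and 21.9 to 26.0 CPM in sham libraries (log2 fold change -0.79, SE 0.39, adjusted p = 1 in edgeR). Ccrl2, a chemerin-binding receptor, had 17.7, 14.2 and 13.9 against 28.05, 28.8 and 23.7 CPM. Ptgs2, the inducible cyclooxygenase, was scarce in every group, at 0.230 to 0.502 against 0.569 to 0.908 CPM. Both Ccl3 and Ccrl2 stood above sham in each genotype without overlap between genotypes.

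Of 29 genes of reactive oxygen species metabolism 24 were lower with a median log2 fold change of -0.26, where 48.0% of all genes with a mean of at least 1 CPM were lower. Cybb, the catalytic subunit of the phagocyte NADPH oxidase, had 17.8, 11.6 and 15.7 against 16.1, 25.04 and 21.0 CPM, and 2.68 to 9.63 CPM in sham libraries. Its groups overlapped, with a log2 fold change of -0.46 (SE 0.32). Tspo, a mitochondrial protein used as an imaging marker of activated microglia, had 32.9, 27.4 and 29.5 against 47.1, 35.8 and 47.8 CPM (log2 fold change -0.54, SE 0.19, adjusted p = 1 in edgeR). Ass1, which makes the precursor of arginine, had 0.640, 1.79 and 1.15 against 2.53, 4.31 and 1.08 CPM. Hmox1, which breaks down heme, had 19.3, 26.2 and 30.6 against 34.8, 25.2 and 36.7 CPM, which overlap. Of 17 genes of heme and iron handling 13 were lower with a median of -0.15, among them Ftl1, the light chain of ferritin, with 1137, 1229 and 1319 against 1820, 1793 and 1609 CPM. Ftl1 is itself near-identical to copies, so its level is uncertain. Slc39a14, a metal importer, had 7.17, 5.17 and 5.95 against 9.08, 8.74 and 7.96 CPM. Glycolytic genes gave 17 of 23 lower with a median of -0.26, led by Ldha, at 61.5, 50.2 and 67.5 against 90.8, 85.7 and 80.5 CPM, and Gapdh, at 487, 425 and 489 against 665, 673 and 590.0 CPM.

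Cell cycle genes were low in all groups and lower in Fgg γ390–396A microglia, with 25 of 27 members lower, a median log2 fold change of -0.50 and 3 with an unadjusted p under 0.05. Of all genes with a mean of at least 1 CPM, 48.0% were lower, and 2.1% were lower with such a p. Pcna, the replication clamp, had 35.9, 30.6 and 35.8 against 42.2, 47.3 and 41.5 CPM. The sum of the list was 338 to 373 CPM in Fgg γ390–396A, 412 to 541 CPM in WT and 252 to 305 CPM in sham libraries. Genes of MHC class I presentation gave 19 of 22 lower with a median of -0.20, and B2m, the light chain of class I molecules, had 7301, 4571 and 5709 against 8450, 7714 and 8298 CPM. Psme1, an activator of the proteasome, had 99.8, 68.6 and 93.5 against 102, 155 and 129 CPM. The B2m libraries did not overlap and the mutant library closest to WT was library 1, as it was for Cst7, Clec7a and Axl. For Spp1, Gpnmb, Igf1 and Apoe library 1 was instead the mutant library farthest from WT.

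The median of interferon-stimulated genes depended on single libraries of both genotypes. Of 36 members 35 were lower, with a median log2 fold change of -0.34, but 0 had an unadjusted p under 0.05, and for 5 the mutant libraries lay below all WT libraries, as for 7.23% of all genes. Irf7, a master regulator of type I interferon responses, had 26.5, 11.1 and 14.6 against 23.1, 36.6 and 36.1 CPM, and 1.405 to 2.49 CPM in sham libraries. Bst2, an interferon-induced tether of viruses, had 117, 62.6 and 67.7 against 116, 124 and 117 CPM. In both genes Fgg γ390–396A library 1 reached the WT range and the other mutant libraries lay below it. Without that library the median of the list was -0.65, without Fgg γ390–396A library 2 it was -0.18 and without library 3 it was -0.21. Without WT library 1 it was -0.53. All 36 members were above sham on average in each genotype, with 28 called higher in WT and 21 in Fgg γ390–396A microglia against the same sham libraries. Of all 12311 genes with a mean of at least 1 CPM, 426 were called higher in WT and 145 in Fgg γ390–396A microglia.

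Homeostatic genes lay on both sides of 0. Of 35 members 22 were higher and 13 lower in Fgg γ390–396A microglia with a median log2 fold change of 0.08, and for 11 the mutant libraries lay above all WT libraries, as for 8.49% of all genes, and for 2 below. The 1 member that was called, Fcrls, was lower. P2ry12 (chromosome 3), a receptor for ADP, had 2433, 2227 and 2115 CPM against 1612, 1595 and 1695 CPM, and 4021, 3954 and 4021 CPM in sham libraries (log2 fold change 0.47, SE 0.42, adjusted p = 1 in edgeR). Tmem119, a membrane protein of microglia, had 352, 309 and 256 against 272, 225 and 229 CPM, which overlap, and 443 to 639 CPM in sham libraries. Mertk, a receptor for dying cells, had 123, 135 and 129 against 137, 126 and 125 CPM, with a 95% interval of the log2 fold change of -0.35 to 0.35. The homeostatic receptor P2ry12 thus lay between WT and sham, and the Mertk libraries overlapped. Olfml3 (chromosome 3), a secreted glycoprotein of microglia, went against the list with 233, 196 and 169.6 against 303, 275 and 277 CPM. Besides the inflammatory response (35 genes, -0.12), lists with a median near 0 were those of cell death (31 genes, -0.01), growth factors and the TGF-beta axis (17 genes, 0.00), alternative activation and interleukin-10 (15 genes, 0.04), phagocytic receptors (21 genes, -0.09), MHC class II presentation (13 genes, -0.12) and complement (14 genes, -0.15). The cell death genes summed to 883 to 933 CPM in Fgg γ390–396A and 995 to 1003 CPM in WT libraries, without overlap. The sums of the lists from growth factors to complement overlapped between the genotypes. With 1 library left out, the median of MHC class II presentation ran from -0.22 without Fgg γ390–396A library 1 to -0.033 without Fgg γ390–396A library 3, and that of complement was -0.085 without Fgg γ390–396A library 2. Stat6, which relays interleukin-4 signals, had 40.5, 49.99 and 36.8 against 32.2, 27.2 and 35.5 CPM.

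**Figure D5:**
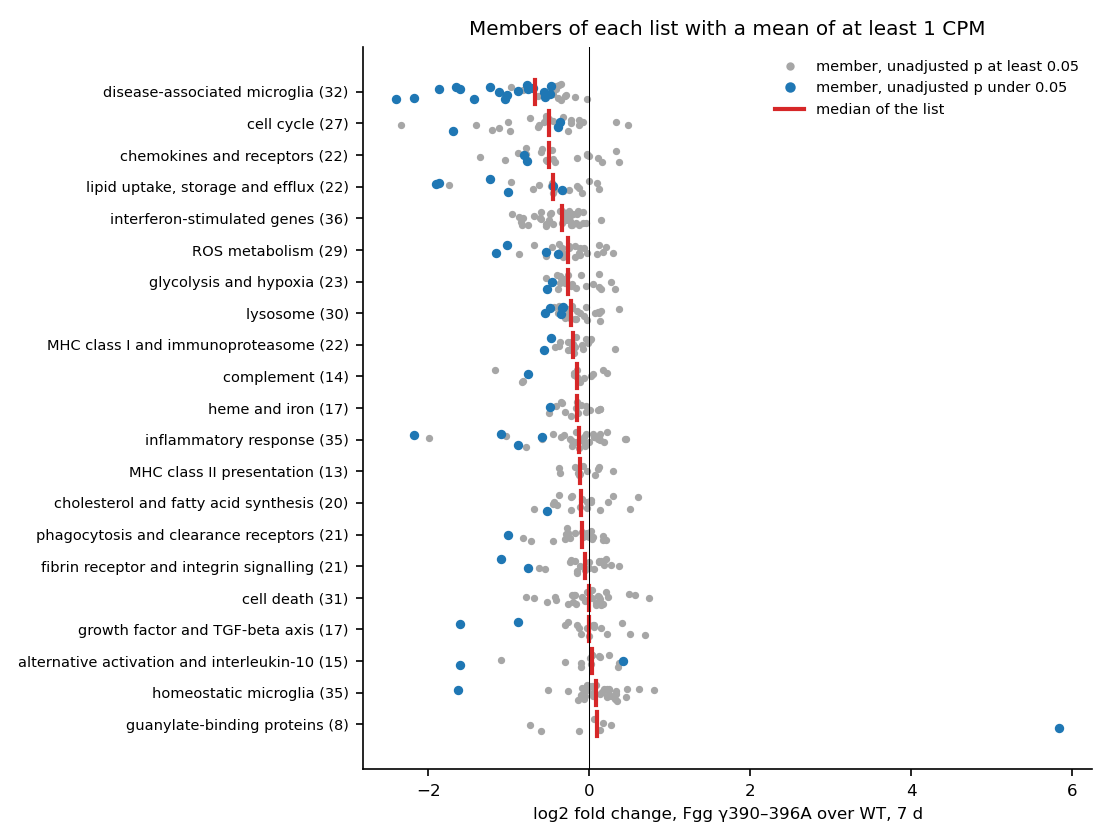
Each point is a member of 1 of 21 gene lists with a mean of at least 1 CPM, by its log2 fold change between Fgg γ390–396A and WT microglia at 7 d, blue at an unadjusted p under 0.05, with the median of each list in red and the number of members in parentheses. Disease-associated microglia have the lowest median, -0.67, with all 32 points left of 0, and homeostatic microglia lie at 0.08.

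The same genotypes were compared at 1 d after CCI in libraries that share none with those of 7 d, in microglia and in infiltrating myeloid cells. Of the 9 genes called at 7 d, the 6 copies, Rps3a1 and Fcrls were called again at 1 d and in myeloid cells. Fabp5 was lower at 1 d without being called, at 3.801 to 4.12 CPM in Fgg γ390–396A and 7.63 to 10.7 CPM in WT microglia. At 1 d 13 genes (0.0546%) were called in microglia and 108 (0.453%) in myeloid cells. Of 39 chromosome 3 genes with an unadjusted p under 0.05 at 7 d, 35 had the same sign at 1 d and 21 of them an unadjusted p under 0.05 there, as had 5.08% of all genes. Of 325 such genes outside chromosome 3 and the copies, 249 had the same sign at 1 d in microglia, 56 of them with an unadjusted p under 0.05, as had 7 of the opposite sign. Of all genes outside chromosome 3 and the copies with a mean of at least 1 CPM there, 6.4% had such a p in 1 d microglia and 13.1% in myeloid cells. In myeloid cells 168 of the 325 had the same sign (51.7%), 22 of them with an unadjusted p under 0.05 and 26 of the opposite sign, together near the 13.1%. Of the 39 chromosome 3 genes 28 had the same sign in myeloid cells, 18 of them with an unadjusted p under 0.05, as had 2 of the opposite sign. As a test of the difference between 7 d and 1 d, the interaction called 0 genes (0%) at an adjusted p under 0.1 in edgeR, with 653 genes (2.74%) at an unadjusted p under 0.05, and DESeq2 called 33 (0.19%). Medians of the lists at 7 d and 1 d were -0.67 and -0.27 for disease-associated microglia, -0.45 and -0.28 for lipid handling, -0.26 and -0.33 for reactive oxygen species, and 0.08 and 0.50 for homeostatic genes.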

How the data were processed

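RNA-seq of sorted mouse brain cells gave 21 libraries in 7 groups of 3. Per the labels and the study's methods, reads were aligned to GRCm38 and quantified with Salmon, and the authors deposited estimated counts per gene, scaled from transcript abundance so that gene length is divided out. The submitters' processing notes name DESeq2 1.36.0 and R 4.2.0. Counts were rounded and fitted in edgeR 4.0.16 (R 4.3.3) with TMM scaling, 1 mean per group over all 21 libraries, the quasi-likelihood test and Benjamini-Hochberg adjustment over 23815 genes with at least 5 counts in all. DESeq2 1.42.0 was an alternative, beside other scalings, count filters, libraries in the fit, a replicate block, a monocyte marker covariate, ribosomal RNA left out and each library left out. CPM were computed from each library's total times its TMM factor. Each count total limits precision, and 3 counts were taken as the floor.

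Genes were matched to GENCODE M21, 45143 of 45706 IDs. Near-identical copies were transcripts at least 95% identical over at least 80% of their length and 150 bases to another gene in BLAST 2.17.0. Named genes were all those called, the 5 with the smallest p in each direction on chromosome 3 and outside it whose groups did not overlap and whose mean was at least 1 CPM, the 2 with the smallest p in each function list, and a set list of genes, of which some are not reported here. Members, lists and genes were chosen with earlier results of these data known. The edgeR test was tried on simulated counts with 200 changed genes, of which it recovered 190, and it called 10 others. The genes raised there had a median log2 fold change of 2.00. Genes were drawn independently, so the trial does not bear on smaller shared shifts or on copies that share reads. Libraries hold pooled brains, so p-values measure the spread between libraries. A table of promoters gave no entry for some genes, which are named only.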

Additional observations from a re-analysis of the deposited data

How the results depend on the processing

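The 9 calls between genotypes became 80 with DESeq2 (40 higher, 40 lower) and 19 with the 6 compared libraries alone (11 higher, 8 lower), and the lower calls became 5 with the monocyte marker covariate. By class, DESeq2 gave 11 on chromosome 3, 10 among its copies, 16 among other copies and 43 elsewhere, and the compared libraries alone gave 5, 3 among other copies and 6 elsewhere. The covariate gave 2 elsewhere, among them Bhlhe40. DESeq2 gave 33 calls for the difference between times, 104 at 1 d in microglia and 841 in myeloid cells, where filterByExpr gave 176. Genes raised by injury were 565 with DESeq2, and those lowered were 72 with DESeq2, 28 with filterByExpr, 50 with microglia alone, 74 with the compared groups and 37 with the covariate. The sign of Mertk, at 0.00, turned to 0.0020 with microglia alone. The cause of these differences was not tested.

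Deviations of same-numbered libraries of the 2 genotypes at 7 d correlated at -0.0029, 0.0999 and 0.0416, and those of differently numbered libraries at -0.0762 to 0.0394. So few pairs cannot decide whether the replicate numbers of the labels stand for anything shared, which was not tested. The replicate block gave 10 calls, of which 9 were shared, with 1 elsewhere (Gm23935), 66 in myeloid cells and 0.0010 for Mertk, and changed no other call at 7 d.

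With each library left out in turn, calls ranged from 6 to 11 in all, 5 to 6 higher, 1 to 5 lower, 1 to 3 on chromosome 3, 5 to 7 among its copies, 0 to 1 among other copies and 0 to 1 elsewhere (Sulf2, without Fgg γ390–396A library 1), 0 to 0 for the difference between times and 6 to 89 at 1 d in microglia, the last without WT library 1 of 1 d. Injury raised 188 genes without sham library 1 and 357 without sham library 3, and lowered 11 to 18. The raised genes were chosen anew in each such fit, so the range of their median covers different genes. Medians ranged from -0.62 to -0.41 for the raised genes, -0.74 to -0.46 for disease-associated microglia, -0.65 to -0.18 for interferon-stimulated genes, -0.46 to -0.39 for lipid handling, -0.64 to -0.36 for chemokines, -0.41 to -0.10 for MHC class I, -0.18 to -0.011 for phagocytic receptors, -0.22 to -0.033 for MHC class II, -0.19 to -0.085 for complement, -0.18 to -0.028 for cholesterol and fatty acid synthesis, -0.050 to 0.047 for cell death, -0.071 to 0.091 for alternative activation, -0.090 to 0.043 for growth factors, 0.046 to 0.16 for homeostatic genes, -0.074 to 0.018 for the fibrin receptor, -0.27 to 0.17 for guanylate-binding proteins, -0.52 to 1.59 for neutrophil markers and, for Mertk itself, -0.036 to 0.053.

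Of 1124 values of named genes under alternatives, 1087 kept their direction and side of the threshold, 18 passed it newly, 14 lost it and 5, all Mertk, turned. Depth limits genes near the floor of 3 counts, such as Fgg and Gbp2b, and 3 libraries of pooled brains limit every test.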

Other observations

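The medians of some gene groups differed between 1 d and 7 d. Of 36 interferon-stimulated genes, 33 were higher in Fgg γ390–396A than WT microglia at 1 d, with a median log2 fold change of 0.69, whereas 35 were lower at 7 d. For Irf7 the 1 d means were 8.64 ± 7.42 and 4.26 ± 1.47 CPM (mutant and WT, SD, 3 libraries each), and its interaction had an unadjusted p of 0.013 in edgeR. All 8 guanylate-binding proteins were higher at 1 d, with a median of 1.05 against 0.10 at 7 d, and 5 of them lie on chromosome 3. Apoe had 203 ± 95.7 against 116 ± 92.4 CPM at 1 d and Mertk, a receptor for dying cells, had 97.7 ± 2.71 against 61.6 ± 12.1 CPM. Hmox1, which breaks down heme, had 46.8 ± 16.3 against 117 ± 46.6 CPM at 1 d. The interactions of Apoe, Mertk and Hmox1 had unadjusted p of 0.032, 0.010 and 0.024 in edgeR, and none of these passed after Benjamini-Hochberg adjustment (adjusted p = 1).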
